A study of Homo sapiens with 34 samples.

Results

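The genes described here are the expressed RNAs with LINC names, that is, the rows whose symbol starts with LINC and whose level reached a mean of 5 CPM (the usual abbreviation for an estimated count scaled to the total of its library) in at least 1 of 17 conditions. Of 37 LINC rows among 37951 rows of the tables, 6 were members: LINC00888, LINC02210, LINC01145, LINC00869, LINC01347 and LINC02495. The members were chosen by these levels, so the condition in which each member peaked is a description with no test. CPM values are not divided by transcript length, so levels were compared between conditions and not between genes.

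The samples were wild-type ESI017 cells, an established human pluripotent stem cell line, with 2 biological replicates of each condition. Day 1 lasted 24 h and gave 4 populations named for primitive streak positions. DE(a) cells received 100 ng/ml activin A and 2 µM CHIR99021, a Wnt pathway activator. Anterior primitive streak (APS) cells received 4 µM CHIR99021 with 30 ng/ml of activin A and 20 ng/ml of bFGF. Mid primitive streak (MPS) cells received the same activin A and bFGF with CHIR99021 raised to 6 µM and BMP4 added at 40 ng/ml. Posterior primitive streak (PPS) cells were treated like MPS cells but without activin. On day 2 each population was moved for 24 h to 1 of 3 media, which gave 12 conditions at 48 h. The DE(b) medium, for definitive endoderm, held 100 ng/ml activin A and 250 nM of the BMP receptor inhibitor LDN-193189. The paraxial mesoderm (PM) medium held 1 µM of the activin receptor inhibitor A-8301, 20 ng/ml bFGF and 250 nM LDN-193189, as the labels give it. The main text of the study describes Wnt activation on day 2 of PM induction, and a legend in its supplement places CHIR99021 in PM treatment. Its methods, like the labels, list no CHIR99021 there, so whether Wnt was activated in the PM samples is unclear. The lateral mesoderm (LM) medium held BMP4 at 30 ng/ml, 1 µM A-8301 and 4 µM of the Wnt secretion inhibitor IWP2. The standard protocols were APS-PM, MPS-LM and, for endoderm, DE(a)-DE(b). The undifferentiated control, labelled 48 h, was kept in mTeSR Plus medium with none of these factors added. Day 1 treatments were given in Essential 6 medium, so the 24 h populations differed from the control in base medium and labelled time too.

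Long intergenic noncoding RNAs are transcribed between protein-coding genes, spliced and often polyadenylated, and a LINC symbol is a placeholder given by position rather than by function. Some arise from pseudogenes, copies of a gene that no longer encode its protein, so part of such an RNA still resembles the parent mRNA. In pluripotent and differentiating cells, noncoding RNAs are often more restricted to a cell state than mRNAs. RNAs that share sequence are also a known difficulty of short-read quantification, because reads from copies can be assigned to either.

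Library totals ranged from 15522780 to 23439799 estimated counts with a median of 19341117, so that 3 counts corresponded to between 0.128 and 0.193 CPM. The markers of each labelled stage were present. Summed CPM of 3 primitive streak markers was 1574 to 2955 in the 24 h libraries and at most 1.86 in the control. Summed CPM of 2 markers was 115.0 to 597 for endoderm in DE(b), 196 to 280 for paraxial mesoderm in PM and 409 to 2235 for lateral mesoderm in LM. Outside these media, paraxial markers reached 133 CPM and lateral markers 254 CPM, both at 24 h. Endoderm markers reached 106 CPM in PM and 129 CPM in LM, so their DE(b) and LM ranges overlapped. The 6 amnion markers summed to 102 to 1156 CPM in LM and to at most 161 CPM elsewhere, and their part in the results for LM was not tested. The 2 neural markers stayed below 1 CPM in all libraries.

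The tables held few noncoding genes. Of their rows, 19741 (52.0%) were protein-coding and 10009 were processed pseudogenes in GENCODE v44, and only 46 were classed as lncRNA. All 6 members are classed there as transcribed pseudogenes, 5 unprocessed and 1 (LINC02210) unitary, and RefSeq classes all 6 as lncRNA. None of 4 LINC RNAs often studied in pluripotent cells or endoderm (LINC-ROR, LINC00458, LINC00678 and LINC00261) and none of 29 long noncoding RNAs with other names had a row, so they were not analysed here. Together the 6 members summed to between 45.0 and 109.9 CPM in a library (median 66.8) and carried 89.4% of all counts of LINC rows. Of the other 31 rows, 9 had no count, 16 stayed under 1 CPM in all conditions and 6 reached 1 CPM. The members nearest the threshold were LINC02495, just inside at 7.34 CPM, and among the rows just outside were LINC01529 at 4.06 and LINC00680 at 3.79 CPM.

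LINC00888 (ENSG00000240024, SNHG33 in RefSeq) lies at chr3:183451741-183455335 on the plus strand of GRCh38 and has a spliced model of 421 nt with 4 exons. Its first part resembles the coding sequence of EIF4A2, a translation initiation factor. The stretch is shown because this member had the clearest pattern by condition, and capitals mark the bases that differ from EIF4A2. Identity was 82.7% over positions 1 to 197, with 35 of 202 aligned positions mismatched or gapped. Gaps in LINC00888 are not marked.
LINC00888: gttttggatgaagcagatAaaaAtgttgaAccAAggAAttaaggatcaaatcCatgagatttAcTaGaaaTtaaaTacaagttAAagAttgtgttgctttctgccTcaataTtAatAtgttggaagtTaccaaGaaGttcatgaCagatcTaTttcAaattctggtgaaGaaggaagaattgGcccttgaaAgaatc

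LINC01145 (ENSG00000272419) lies at chr1:145214677-145215726 on the minus strand, with a model of only 143 nt in 2 exons. It is shown whole because nearly all of it is also found in PARP8, a coding gene on chromosome 5 for a member of the PARP family of ADP-ribosyltransferases. The identity was 95.2%, with 7 of 146 aligned positions mismatched or gapped. Capitals mark the 4 substituted bases, and gaps in LINC01145 are not marked.
LINC01145: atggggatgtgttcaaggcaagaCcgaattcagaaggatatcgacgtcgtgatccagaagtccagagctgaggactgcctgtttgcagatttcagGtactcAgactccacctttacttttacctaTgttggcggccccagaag

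The other members differed in how much they resembled coding genes. LINC02210 (ENSG00000204650, chr17:45620328-45655156, plus strand) overlaps the read-through gene LINC02210-CRHR1, which was listed at no more than 0.364 CPM, and its pseudogene model of 288 nt was 75.4% identical to ARF3, a small GTPase of the Golgi. LINC00869 (ENSG00000277147, chr1:149655731-149669321, plus strand, 870 nt, 6 exons) was 75.9% identical to NBPF6 over positions 34 to 361. LINC01347 (ENSG00000214837, chr1:243087710-243097299, minus strand, 355 nt, 4 exons) was 86.3% identical to GTF2I, a transcription factor. LINC02495 (ENSG00000249896, chr4:6227614-6229867, plus strand, 242 nt, 3 exons) matched no other gene of the tables and is now named JAKMIP1-DT, for divergent transcript of JAKMIP1.

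Near-identical copies, taken as rows with at least 95% identity over at least 50% of the member, were found for 3 members. LINC01145 had 4 copies and made up 19.8% of the summed counts. The expressed copies were PARP8 and the pseudogene AC244669.1 on chromosome 1, which was 99.3% identical over the whole model and had a mean of 6.28 CPM over all libraries. LINC01347 had 6 copies, among them FAM157B and GTF2IP20, and made up 10.5% of the sum. LINC00869 had 3 copies and made up 94.6%. How Salmon divided reads among these copies was not tested, and values with the copies summed are given beside the results. Since PARP8 dominates the sum for LINC01145, values are also given for LINC01145 and AC244669.1 together. LINC00888, LINC02210 and LINC02495 had no such copy.

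LINC00888 was highest in DE(b) medium. Its level in the 8 DE(b) libraries had a lowest value of 44.5, a median of 52.6 and a highest of 69.2 CPM, and all 8 were above the other 26 libraries, of which the highest reached 29.5 CPM. The mean was 63.6 CPM in MPS-DE(b) (replicates 69.2 and 57.9), 57.2 in APS-DE(b) (57.6 and 56.9), 47.2 in PPS-DE(b) (46.9 and 47.5) and 46.4 in DE(a)-DE(b) (48.4 and 44.5). MPS-DE(b) was the highest condition in both replicates, although its lower library lay only just above the higher APS-DE(b) library. Outside DE(b), the control libraries measured 14.2 and 15.6 CPM, the 24 h libraries 7.77 to 24.0 (median 15.6), the PM libraries 15.6 to 22.4 (median 18.4) and the LM libraries 17.1 to 29.5 (median 22.3). The lowest condition was PPS-24h, with 10.4 and 7.77 CPM. In bulk samples such as these, fewer cells that express a gene and less RNA per cell cannot be told apart.

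LINC02495 was highest at 24 h and lowest in PM and LM. DE(a)-24h led with 6.79 and 7.89 CPM, followed by APS-24h with 4.22 and 8.34, MPS-24h with 4.73 and 5.61 and PPS-24h with 2.12 and 4.39. Of the 8 libraries at 24 h, 7 were above all the others, and the remaining 1, PPS-24h replicate 1, was close to the control libraries at 2.04 and 2.13 CPM. The DE(b) libraries measured 1.69 to 3.19 (median 2.07), the PM libraries 0.216 to 0.504 (median 0.355) and the LM libraries 0.210 to 1.85 CPM (median 0.379). The lowest library held 4 counts, and the condition means spanned 32.4-fold, from 7.34 CPM in DE(a)-24h to 0.227 in PPS-PM. This member reached 5 CPM in 3 conditions, all at 24 h, so its differences between 24 h and other stages are given below as sizes without a p-value.

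LINC02210 was highest in undifferentiated cells, with DE(a)-DE(b) close to it. The control libraries measured 29.7 and 34.5 CPM and the DE(a)-DE(b) libraries 31.0 and 29.5, so that these conditions overlapped, and the leading condition changed with the replicate. At 24 h the level was 12.2 to 22.3 CPM (median 17.9), with MPS-24h lowest at 12.2 and 13.2. Within DE(b) it ran from 15.2 to 31.0 (median 22.9), within PM from 14.1 to 24.9 (median 17.4) and within LM from 9.77 to 27.1 CPM (median 15.9). The lowest condition was MPS-LM at 13.3 and 9.77 CPM.

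LINC01145, taken alone, was highest in cells that had passed through PPS, except in DE(b). PPS-PM led in both replicates with 18.5 and 21.9 CPM, followed by PPS-24h with 15.6 and 14.0 and PPS-LM with 13.6 and 12.5. Of the remaining libraries, only APS-PM replicate 2 (16.6 CPM) and MPS-PM replicate 2 (14.2) reached the range of those 6. The exception among PPS conditions was PPS-DE(b), with 5.63 and 5.95 CPM, inside the range of all 8 DE(b) libraries (4.39 to 6.17, median 5.35). AC244669.1 was instead highest in DE(b), at 6.10 to 17.3 CPM in DE(b) (median 10.9, highest in APS-DE(b)), 2.40 to 4.51 in PM and 1.44 to 3.30 in LM. Summed, the 2 rows measured 11.7 to 22.2 CPM in DE(b) (median 15.95), 10.04 to 24.5 in PM (median 15.6) and 4.35 to 16.4 in LM (median 7.61), so DE(b) and PM overlapped. The sum was 21.4 and 24.5 CPM in PPS-PM, 22.2 and 21.9 in APS-DE(b) and 11.7 and 12.5 in PPS-DE(b), the lowest of the DE(b) conditions. The control libraries measured 6.37 and 3.92 CPM, and the lowest condition, DE(a)-LM, 3.86 and 2.91.

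LINC00869 was highest in PM, without a clear leading condition. The 8 PM libraries measured 11.0 to 21.1 CPM with a median of 15.1, the 24 h libraries 8.60 to 15.2 (median 11.8), the DE(b) libraries 6.04 to 10.4 (median 7.78), the LM libraries 3.21 to 9.9997 (median 5.75) and the control libraries 6.75 and 6.59. APS-PM had the highest mean, 16.7 CPM, but its replicates were 12.4 and 21.1, and 8 libraries of other conditions lay above the lower of them. In replicate 1 alone PPS-24h led, at 15.2 CPM.

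LINC01347, taken alone, varied little by condition relative to its replicates. PPS-24h had the highest mean, 8.89 CPM, from replicates of 6.59 and 11.2, and 4 libraries of other conditions exceeded the lower replicate. PPS-LM followed at 6.50 and 8.43 CPM and DE(a)-DE(b) at 5.26 and 8.44. The median replicate pair differed 1.32-fold, against a span of 2.77-fold between the highest and lowest condition means. The control libraries were at 3.52 and 3.26 CPM, and the medians of the other stages lay between 4.54 CPM in DE(b) and 5.58 in LM. The sum of LINC01347 and its 6 copies was highest at 24 h, with a median of 76.6 CPM against 41.6 in LM, 39.0 in PM, 42.8 in DE(b) and 32.6 in the control. FAM157B had the largest part of that sum, a mean of 21.6 CPM.

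**Figure D1:**
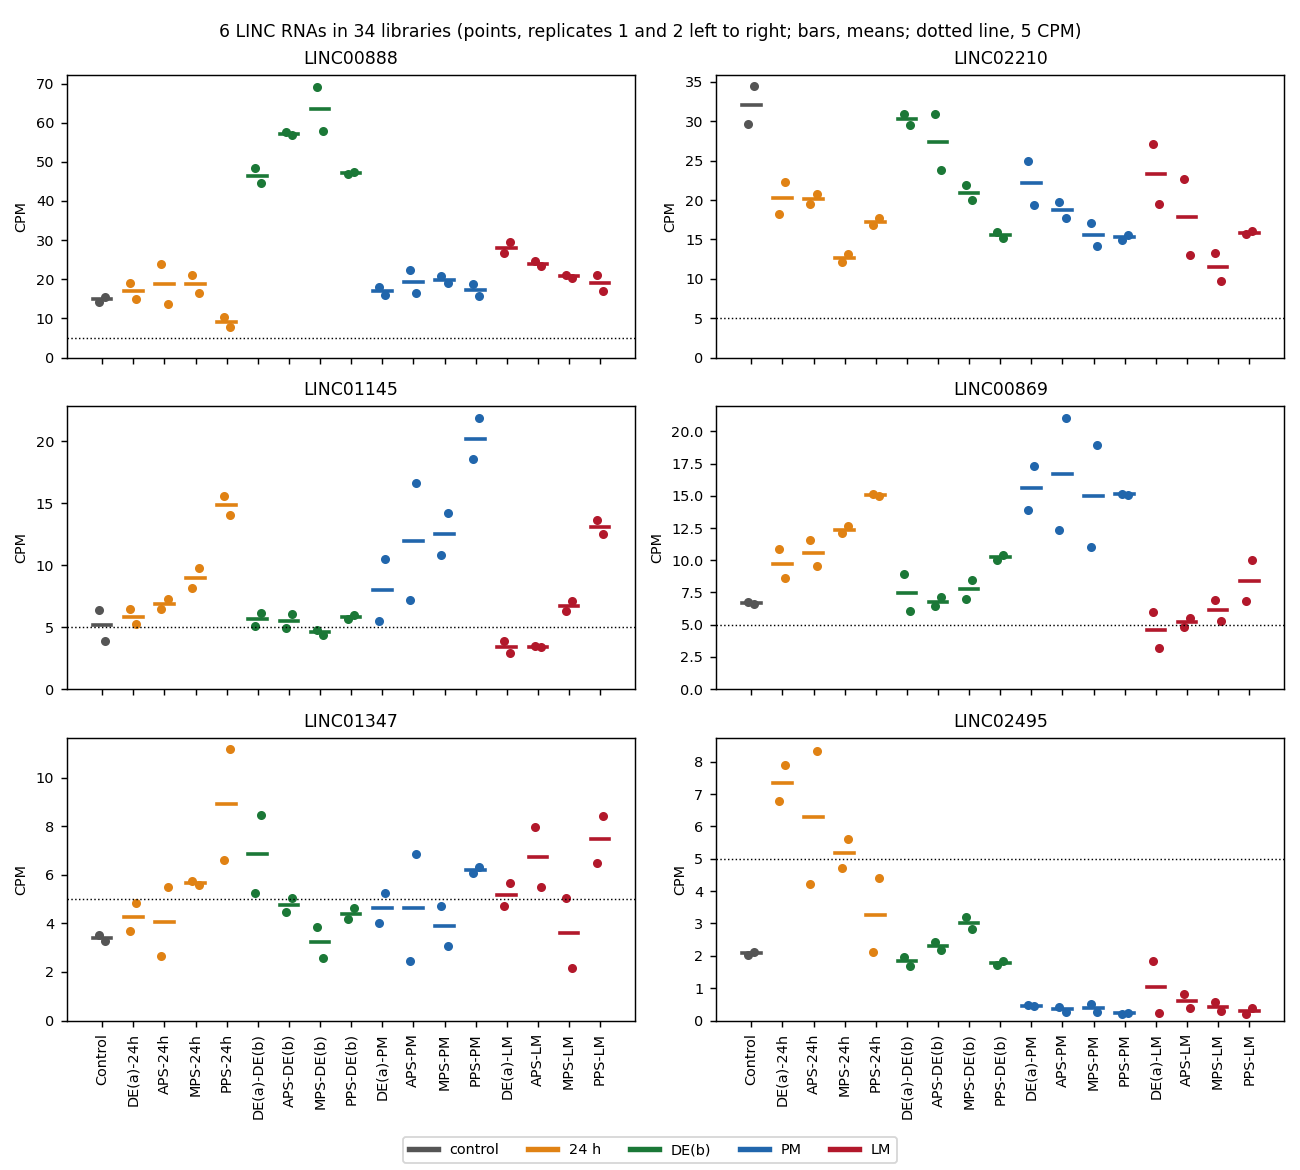
Level in CPM (y axis, from 0, a separate scale for each gene) of the 6 LINC RNAs in the 17 conditions (x axis), with points for replicates 1 and 2 and bars for their means, coloured by stage. The 8 DE(b) libraries of LINC00888 (44.5 to 69.2 CPM) stand above all others, LINC02495 falls to 0.216 to 0.504 CPM in PM, and LINC01145 peaks in PPS-PM (18.5 and 21.9 CPM).

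Of the 6 members, 2 led at 24 h, 2 in PM, 1 in the control, 1 in DE(b) and 0 in LM. The leading condition was the same in both replicates for 2 of 6 members (LINC00888 and LINC01145) and the leading stage for 3 of 6, LINC02495 being the third. Counts of calls below come from 1 model of all 34 libraries (edgeR's quasi-likelihood test, Benjamini-Hochberg adjustment over 17895 genes, threshold 0.05). Members had to reach 5 CPM somewhere, which favours differences, and LINC02495 did so only at 24 h, so these counts describe the members and support nothing about LINC RNAs as a class.

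The first comparison set each 24 h population against the undifferentiated control, which also differed in base medium and labelled time. DE(a)-24h against the control gave 1 call of 6 members where 19% of all genes tested were called, APS-24h 2 (24.5%), MPS-24h 3 (30.0%) and PPS-24h 5 (29.8%). The DE(a)-24h call and 1 of the APS-24h calls were LINC02495, the member chosen by its 24 h level, and nothing is read from them. The median log2 fold change of the members was 0.36, 0.46, 0.87 and 0.93 in these comparisons, and that of all genes was between 0.00 and 0.03. The member medians include LINC02495 and LINC01347, which led at 24 h, so nothing is read from them either. The control libraries are shared by the 4 comparisons.

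LINC02210 fell in 3 of the 4 populations, with the other just outside the threshold. Its log2 fold change was -1.24 in MPS-24h (SE 0.20, edgeR adjusted p = 5.31e-05), -0.87 in PPS-24h (SE 0.20, adjusted p = 0.00196) and -0.59 in APS-24h (SE 0.20, adjusted p = 0.0333), with -0.57 in DE(a)-24h (SE 0.20, adjusted p = 0.0506). The DE(a)-24h value passed the threshold with the replicate block (adjusted p = 0.0331), RLE scaling (0.0423), copies summed (0.0454) and DESeq2 (0.0245), and its adjusted p was 0.0554 to 0.293 in the other 6 alternatives. Both libraries of every 24 h population were below both control libraries. The MPS-24h and PPS-24h calls held in all 10 alternatives. The APS-24h call held in 5 of 10, with adjusted p from 0.0143 to 0.194, and was lost without either APS-24h library (0.128 and 0.0885), without Control replicate 2 (0.194), with no filter on low counts and in a fit of these libraries only.

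LINC01145 and LINC00869 were called higher in MPS-24h and PPS-24h, the populations treated with BMP4 and 6 µM CHIR99021. Smaller rises were not called in APS-24h (0.50 and 0.74, edgeR adjusted p = 0.310 and 0.0802) or in DE(a)-24h (0.28 and 0.64, adjusted p = 0.661 and 0.163). MPS-24h against APS-24h gave 0.40 and 0.25 (adjusted p = 0.749 and 0.872), so these populations were not told apart for either member. In PPS-24h the log2 fold change was 1.55 for LINC01145 (SE 0.33, edgeR adjusted p = 0.00105) and 1.20 for LINC00869 (SE 0.30, adjusted p = 0.00432). In MPS-24h it was 0.90 for LINC01145 (SE 0.33, adjusted p = 0.0421) and 0.99 for LINC00869 (SE 0.30, adjusted p = 0.0155). LINC00869 in PPS-24h was called in all 10 alternatives. LINC00869 in MPS-24h lost its call without any 1 of the 4 libraries compared (MPS-24h replicate 1 or 2, Control replicate 1 or 2), with adjusted p from 0.0597 to 0.0815. LINC01145 in MPS-24h held in 6 of 11 alternatives, with adjusted p from 0.00728 to 0.460. It was lost without MPS-24h replicate 1 (0.0791) or 2 (0.188), without Control replicate 2 (log2 fold change 0.59, adjusted p = 0.329) and with no filter. With the near-identical copies summed, the LINC01145 changes were 0.22 in MPS-24h (adjusted p = 0.460) and 0.33 in PPS-24h (adjusted p = 0.224). With AC244669.1 alone added they were 0.90 (adjusted p = 0.00728) and 1.07 (adjusted p = 0.00206). PARP8 itself had a log2 fold change of -0.02 in PPS-24h (SE 0.23, adjusted p = 0.965).

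LINC01347 rose in PPS-24h with a log2 fold change of 1.41 (SE 0.45, edgeR adjusted p = 0.0203). The call held in 7 of 10 alternatives, with adjusted p from 0.00077 to 0.197, and was lost without Control replicate 1 (0.0877) or 2 (0.108) or PPS-24h replicate 2 (0.197). With its 6 copies summed, the log2 fold change was 1.52 in PPS-24h (adjusted p = 0.00077), 1.40 in MPS-24h (adjusted p = 0.00142) and 1.01 in APS-24h (adjusted p = 0.0193), the last 2 not called for LINC01347 alone.

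LINC00888 fell in PPS-24h, with a log2 fold change of -0.69 against the control (SE 0.22, edgeR adjusted p = 0.0211). The call was lost without PPS-24h replicate 2 (0.206) or Control replicate 2 (0.116) and in a fit of these libraries only, with adjusted p from 0.00616 to 0.206 over 10 alternatives. Between neighbouring streak populations, APS-24h against DE(a)-24h and MPS-24h against APS-24h gave 0 member calls in edgeR, where 0.732% and 2.93% of all genes were called. In these comparisons 1208 and 2137 of 17895 genes had an unadjusted p under 0.05, and DESeq2 called 0 and 1 members, the latter LINC02210. PPS-24h against MPS-24h gave 1 call (6.14% of all genes), LINC00888, with a log2 fold change of -1.12 (SE 0.22, edgeR adjusted p = 0.00311). That call was lost without MPS-24h replicate 1 (0.101) or PPS-24h replicate 2 (0.0921) and in a fit of these libraries only (0.121), and held in 7 of 10 alternatives, the lowest adjusted p being 9.40e-05. For LINC02495, the log2 fold changes against the control were 1.91 in DE(a)-24h (SE 0.57), 1.67 in APS-24h (SE 0.56), 1.41 in MPS-24h (SE 0.56) and 0.66 in PPS-24h (SE 0.56). Without APS-24h replicate 2 the APS-24h value was 1.08.

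**Figure D2:**
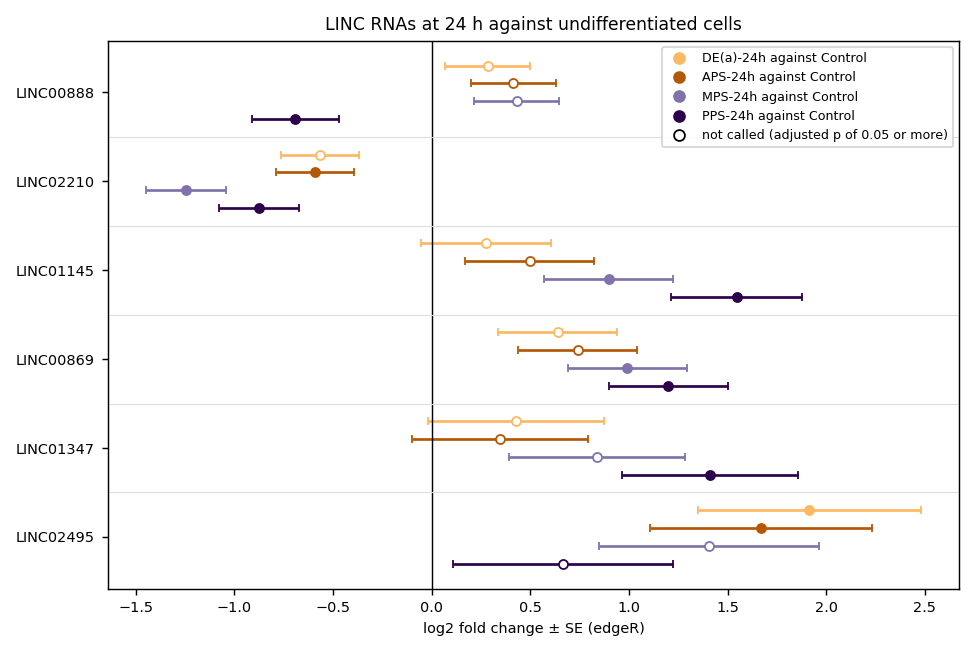
Log2 fold change with its SE (x axis) of the 6 LINC RNAs (y axis) in each 24 h population against the undifferentiated control, from edgeR, with filled points for adjusted p under 0.05. LINC02210 lies below 0 in all 4 populations (-0.57 to -1.24), and LINC01145, LINC00869 and LINC01347 have their highest values in PPS-24h (1.55, 1.20 and 1.41).

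The second comparison followed each standard protocol from day 1 to day 2. From DE(a)-24h to DE(a)-DE(b), 2 of 6 members were called (28.0% of all genes), from APS-24h to APS-PM 1 (25.1%) and from MPS-24h to MPS-LM 2 (31.3%). LINC02495 gave 1 of the calls in each, and nothing is read from these because its 24 h level made it a member. LINC00888 rose in DE(b), from 19.1 and 14.8 to 48.4 and 44.5 CPM, a log2 fold change of 1.38 (SE 0.22, edgeR adjusted p = 5.95e-05) that held in all 10 alternatives. LINC00869 fell in LM, from 12.1 and 12.7 to 6.89 and 5.32 CPM, a log2 fold change of -1.04 (SE 0.30, edgeR adjusted p = 0.0113). That call was lost without MPS-24h replicate 2 (0.0533) or MPS-LM replicate 2 (0.104), with adjusted p from 0.00442 to 0.104 over 10 alternatives. LINC02495 was lower on day 2 in each protocol, with log2 fold changes of -2.07 in DE(b) (SE 0.57), -4.28 in PM (SE 0.65) and -3.59 in LM (SE 0.64). Summing the copies changed other values. From MPS-24h to MPS-LM the log2 fold change of LINC01347 was -0.69 alone (edgeR adjusted p = 0.262) and -1.45 summed (adjusted p = 0.00107), and that of LINC01145 was -0.42 alone (adjusted p = 0.353), -0.99 summed (adjusted p = 0.000574) and -1.12 with AC244669.1 only (adjusted p = 0.00137). From DE(a)-24h to DE(a)-DE(b), LINC01145 had -0.13 alone (adjusted p = 0.821), -0.81 summed (adjusted p = 0.00406) and 0.06 with AC244669.1 only (adjusted p = 0.901). From APS-24h to APS-PM, LINC01347 was -0.94 summed (adjusted p = 0.0284), where it had not been called alone.

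The third comparison asked which day 2 medium a member followed when averaged over the 4 day 1 treatments, 8 libraries against 8. DE(b) against PM gave 5 calls of 6 (43.0% of all genes tested), 3 higher (21.4%) and 2 lower (21.6%). LM against PM gave 3 (42.0%), 1 higher (21.0%) and 2 lower (21.0%). LM against DE(b) gave 4 (39.6%), 0 higher (19.8%) and 4 lower (19.8%). The median log2 fold change of the members was 0.22, 0.11 and -0.45, against -0.01, 0.00 and 0.02 over all genes.

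LINC00888 was higher in DE(b) than in PM (log2 difference 1.59, SE 0.11, edgeR adjusted p = 5.19e-11) and lower in LM than in DE(b) (-1.22, SE 0.11, adjusted p = 3.73e-09). It was also a little higher in LM than in PM, by 0.37 (SE 0.11, adjusted p = 0.0073), a difference for which the LM and PM libraries overlapped. LINC02495 was higher in DE(b) than in PM by 2.70 (SE 0.32, adjusted p = 3.41e-07) and lower in LM than in DE(b) (-2.04, SE 0.31, adjusted p = 1.16e-05), and its DE(b) libraries were all above those of PM. The 24 h level, through which LINC02495 became a member, enters neither comparison. LINC02210 was higher in DE(b) than in PM by 0.42 (SE 0.10, adjusted p = 0.00156) and lower in LM than in DE(b) (-0.46, SE 0.10, adjusted p = 0.000771), with overlapping libraries in both. All these calls held in each of 22 alternatives.

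LINC00869 had the reverse pattern, with PM highest, and so did LINC01145 taken alone but not with AC244669.1 added. LINC00869 was lower in DE(b) than in PM (log2 difference -0.92, SE 0.15, edgeR adjusted p = 2.94e-05) and lower in LM than in PM (-1.35, SE 0.15, adjusted p = 1.82e-07). The 8 PM libraries of LINC00869 (11.0 to 21.1 CPM) did not overlap the 16 of DE(b) and LM (3.21 to 10.4 CPM). Its smaller difference between LM and DE(b), -0.43 (SE 0.15, adjusted p = 0.0286), held in 13 of 22 alternatives, with adjusted p from 0.00746 to 0.0887. That call was lost without replicate 1 of DE(a)-DE(b), APS-LM or PPS-LM, without replicate 2 of APS-DE(b), MPS-DE(b), PPS-DE(b), DE(a)-LM or MPS-LM (0.0510 to 0.0887 for these 8 libraries), and with copies summed. LINC01145 was lower in DE(b) than in PM (-1.17, SE 0.16, adjusted p = 4.18e-06) and in LM than in PM (-1.08, SE 0.16, adjusted p = 1.11e-05). With AC244669.1 added, the difference between DE(b) and PM was 0.07 (SE 0.12, adjusted p = 0.701), that between LM and PM -0.89 (SE 0.12, adjusted p = 3.84e-06) and that between LM and DE(b) -0.96 (SE 0.12, adjusted p = 1.48e-06), the last being 0.08 for LINC01145 alone (adjusted p = 0.759). AC244669.1 itself was higher in DE(b) than in PM by 1.78 (SE 0.16, adjusted p = 4.85e-09). With all copies summed, PARP8 included, the LINC01145 values against PM were -0.47 (adjusted p = 0.000465) and -0.70 (adjusted p = 5.01e-06). PARP8 alone had log2 differences of -0.86 (SE 0.12, adjusted p = 3.27e-06) and -0.62 (SE 0.12, adjusted p = 0.00018) in the same comparisons. LINC01347 was not called in any of the 3 comparisons, with log2 fold changes of 0.01, 0.27 and 0.25 (SE 0.22 each).

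**Figure D3:**
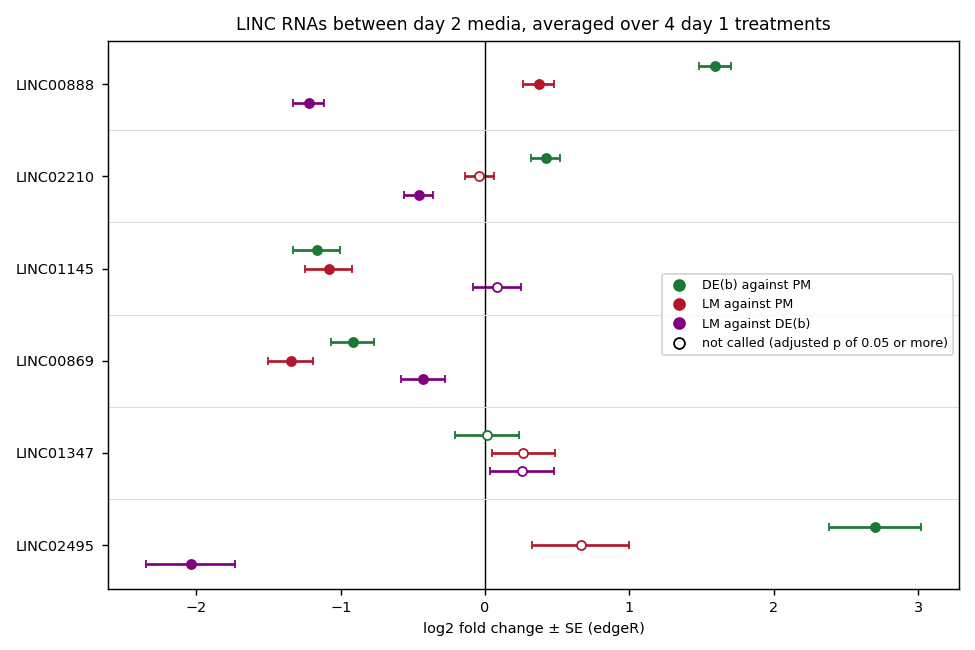
Log2 fold change with its SE (x axis) of the 6 LINC RNAs (y axis) between day 2 media averaged over the 4 day 1 treatments, from edgeR, with filled points for adjusted p under 0.05. LINC00888 and LINC02495 are higher in DE(b) than in PM (1.59 and 2.70), LINC00869 and LINC01145 lower (-0.92 and -1.17), the latter being 0.07 with its copy AC244669.1 added.

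The fourth comparison asked whether the day 1 treatment still showed at 48 h within a medium. Among day 1 treatments, 1 member was called in DE(b) (16.6% of all genes), 1 in PM (7.47%) and 2 in LM (19.6%). LINC02210 differed in DE(b) (edgeR adjusted p = 0.0081), where the replicates were 31.0 and 29.5 CPM for DE(a), 30.9 and 23.9 for APS, 21.9 and 20.0 for MPS and 15.9 and 15.2 for PPS. The endoderm markers (SOX17 and FOXA2) summed to 115.0 to 235 CPM in PPS-DE(b) and 408 to 597 in the other DE(b) conditions. This sum does not show the low FOXA2 that the paper reports in MPS-DE(b). The paraxial markers summed to 63.2 to 63.6 CPM in PPS-DE(b) against at most 9.87. LINC02210 differed in LM too (edgeR adjusted p = 0.0154), where DE(a)-LM had 27.1 and 19.6 CPM and MPS-LM 13.3 and 9.77. DE(a)-LM libraries held 98.4 to 129 CPM of endoderm and 409 to 859 of lateral mesoderm markers, where MPS-LM libraries held at most 0.190 and 1899 to 2235. Markers of undifferentiated cells (POU5F1, NANOG and SOX2) summed to 166 to 223 CPM in DE(a)-DE(b) and 52.3 to 88.0 in APS-DE(b). They summed to 29.0 to 50.4 CPM in MPS-DE(b) and 33.6 to 36.2 in PPS-DE(b). In DE(a)-LM they were at 60.3 to 81.4 CPM, and in MPS-LM at 14.4 to 20.1. The part of these marker levels in the LINC02210 results was not tested. Against the standard protocol, PPS-DE(b) was lower, at a log2 difference of -0.92 (SE 0.20, adjusted p = 0.00251; 17.4% of all genes called) in all 10 alternatives. DE(a)-LM was higher than MPS-LM by 0.91 (SE 0.20, adjusted p = 0.00327; 14.4% of all genes). The DE(b) call was lost without PPS-DE(b) replicate 1 (0.0581) or 2 (0.0665). The LM call was lost without DE(a)-LM replicate 1 (0.112) or MPS-LM replicate 2 (0.157) and in a fit of these libraries only (0.186). The call of DE(a)-LM against MPS-LM was lost without the same libraries (0.0740 and 0.0849) and in a fit of its 4 libraries only (0.0621).

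LINC01145 differed among day 1 treatments in LM (edgeR adjusted p = 0.000112, called in all 15 alternatives) and, just under the threshold, in PM (adjusted p = 0.0498). In LM the replicates were 3.86 and 2.91 CPM for DE(a), 3.48 and 3.37 for APS, 6.31 and 7.12 for MPS and 13.6 and 12.5 for PPS. PPS-LM also stood apart in amnion markers, which summed to 1042 to 1156 CPM there and to 102 to 335 in the other LM conditions, and their part in this result was not tested. In PM the LINC01145 replicates were 5.53 and 10.5 CPM for DE(a) and 7.20 and 16.6 for APS. They were 10.8 and 14.2 CPM for MPS and 18.5 and 21.9 for PPS, with APS overlapping both DE(a) and MPS. The PM call held in 7 of 15 alternatives, with adjusted p from 0.00521 to 0.473. It was lost without DE(a)-PM replicate 1 (0.250), MPS-PM replicate 1 (0.0568) or 2 (0.0507), or PPS-PM replicate 1 (0.0989) or 2 (0.312), with copies summed (0.0746), with AC244669.1 added (0.0627) and in a fit of these libraries only (0.473). Against MPS-LM, DE(a)-LM was lower, at a log2 difference of -1.11 (SE 0.34, adjusted p = 0.0287), a call that was lost without any 1 of the 4 libraries compared, DE(a)-LM or MPS-LM replicate 1 or 2 (0.0541 to 0.195), and in a fit of those alone (0.103). With AC244669.1 added it was -0.73 (adjusted p = 0.0615). With copies summed it was -0.20 (adjusted p = 0.616), while PPS-LM against MPS-LM was then 1.24 (adjusted p = 0.000439) in place of 0.94 (adjusted p = 0.110). LINC00869 was called among day 1 treatments in LM when its copies were summed (adjusted p = 0.0300, alone 0.0928). PARP8 measured 42.8 and 40.4 CPM in PPS-LM and 14.1 to 19.4 CPM in the other LM libraries. Of the 9 comparisons with a standard protocol, 7 gave no member call by edgeR. These were APS-DE(b) and MPS-DE(b) against DE(a)-DE(b) (0.469% and 5.59% of all genes called), PPS-PM, MPS-PM and DE(a)-PM against APS-PM (5.25%, 0.447% and 0.0559%) and APS-LM and PPS-LM against MPS-LM (3.79% and 5.60%). The number of genes with an unadjusted p under 0.05 in them was between 818 and 3182, and DESeq2 also called 0 members in each. The interaction of day 1 treatment and day 2 medium was called for 1 of 6 members (13.1% of all genes), LINC01145, at an adjusted p of 0.0342, and 0.00207 with AC244669.1 added.

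**Figure D4:**
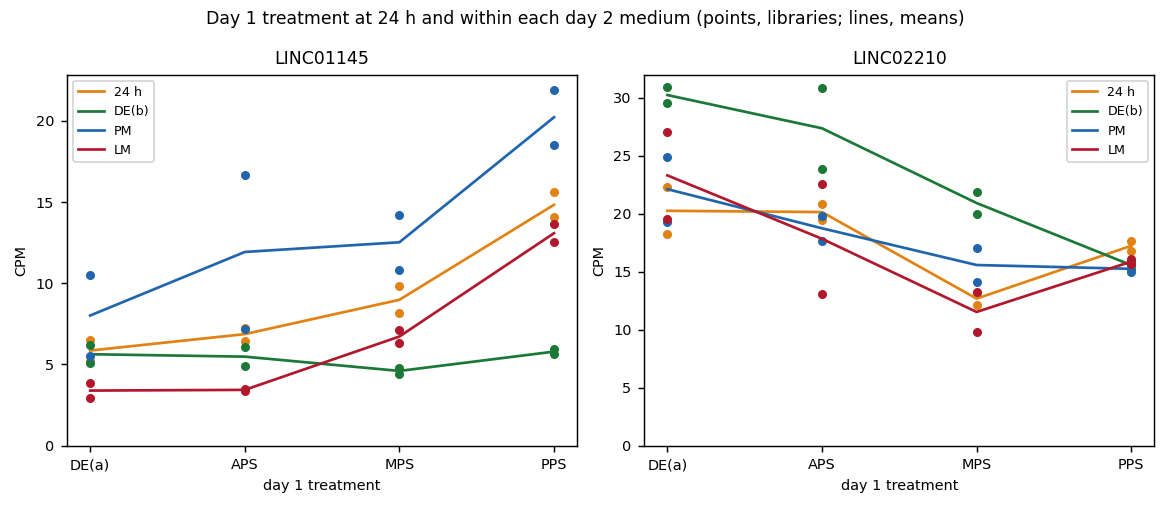
Level in CPM (y axis, from 0) of LINC01145 and LINC02210 by day 1 treatment (x axis) at 24 h and within each day 2 medium, with points for libraries and lines through the means of 2 replicates. LINC01145 is high after PPS at 24 h, in PM and in LM but stays at 4.39 to 6.17 CPM in DE(b) (11.7 to 22.2 with AC244669.1 added), and LINC02210 in DE(b) runs from 30.2 CPM after DE(a) to 15.6 after PPS.

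Members were also set beside each other and beside their genomic neighbours over the 17 condition means, which share libraries and depth, and these correlations are descriptions. Each r was computed on log2(mean CPM + 1). LINC00869 and LINC01145 were the most alike of the 15 pairs (Pearson's r = 0.80, LINC01145 without its copies), and the remaining pairs lay between -0.54 and 0.36. Their RefSeq start windows on chromosome 1 (300 bases of GRCh38.p14, at chr1:149606762-149607061 on the plus strand and chr1:145216003-145216302 on the minus strand) held the same run of 152 bases. Over the 180 bases that aligned, 178 were identical (98.9%). GC content was 77.0% and 76.7%, against a median of 58.7% over 35116 such windows. Both windows lie outside the GENCODE genes, which span chr1:149655731-149669321 for LINC00869 and chr1:145214677-145215726 for LINC01145. They are therefore not the starts of the models described above. Whether the shared run has a part in the likeness of the levels was not tested. The windows are shown for that run, which capitals mark.
LINC00869 start window: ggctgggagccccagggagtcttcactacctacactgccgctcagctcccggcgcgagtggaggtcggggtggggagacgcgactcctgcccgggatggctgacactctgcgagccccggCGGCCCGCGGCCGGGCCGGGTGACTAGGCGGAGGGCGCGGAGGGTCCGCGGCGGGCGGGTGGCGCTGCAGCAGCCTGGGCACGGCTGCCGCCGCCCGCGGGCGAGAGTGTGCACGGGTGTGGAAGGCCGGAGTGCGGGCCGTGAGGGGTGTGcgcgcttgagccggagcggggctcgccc
LINC01145 start window: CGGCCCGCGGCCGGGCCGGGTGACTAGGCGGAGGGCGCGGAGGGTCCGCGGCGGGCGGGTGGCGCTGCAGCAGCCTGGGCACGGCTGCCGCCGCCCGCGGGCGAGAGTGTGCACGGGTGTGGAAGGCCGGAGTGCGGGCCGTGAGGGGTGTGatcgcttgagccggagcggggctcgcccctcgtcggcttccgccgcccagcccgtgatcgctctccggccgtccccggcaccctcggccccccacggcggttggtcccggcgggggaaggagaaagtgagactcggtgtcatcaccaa

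LINC00888 was most like its neighbour MCF2L2, a guanine nucleotide exchange factor gene on the opposite strand 22963 bases away (r = 0.91). MCF2L2 measured 31.7 to 86.9 CPM in the 8 DE(b) libraries and at most 17.3 elsewhere, and also peaked in MPS-DE(b), at 83.0 and 86.9 CPM. Its log2 fold change in DE(b) against PM was 4.81 (SE 0.19, edgeR adjusted p = 6.23e-15). KLHL6, the neighbour on the other side, had r = 0.77 and reached 13.5 CPM in MPS-DE(b). In DE(a)-DE(b), however, KLHL6 measured only 0.689 and 0.407 CPM. EIF4A2, whose sequence LINC00888 resembles, had r = 0.04 and did not pass the test in DE(b) against PM (log2 fold change -0.12, SE 0.09, adjusted p = 0.286).

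LINC02495 was set beside JAKMIP1, the gene it is named for in RefSeq, which encodes a microtubule-associated protein and is read from the opposite strand. JAKMIP1 was highest in DE(b), at 25.4 to 59.7 CPM, and measured 8.30 to 13.5 CPM at 24 h, where LINC02495 was highest. Both were low in PM, JAKMIP1 at 0.371 to 2.48 CPM. From DE(a)-24h to DE(a)-DE(b) JAKMIP1 rose with a log2 fold change of 1.36 (SE 0.29, edgeR adjusted p = 0.00135), while the LINC02495 value was -2.07. Over the 17 conditions r was 0.64 with JAKMIP1 and 0.79 with WFS1, the next gene on the other side. LINC01145 had r = -0.80 with FAM72D, and LINC01347 had r = -0.36 with CEP170, both members taken without their copies.

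**Figure D5:**
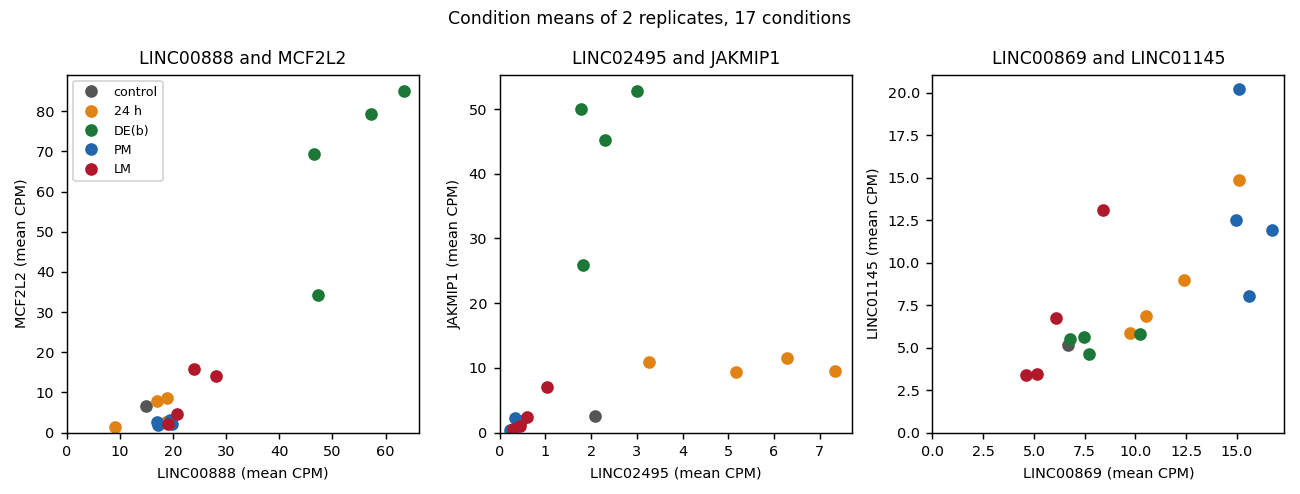
Condition means in CPM (both axes from 0, mean of 2 replicates) of LINC00888 against MCF2L2, LINC02495 against JAKMIP1 and LINC00869 against LINC01145 in 17 conditions, coloured by stage. The 4 DE(b) conditions stand apart for LINC00888 and MCF2L2, whereas JAKMIP1 peaks in DE(b) and LINC02495 at 24 h.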

How the data were processed

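Poly(A)-selected stranded RNA libraries of wild-type ESI017 cells were analysed, 2 biological replicates of 17 conditions, replicate 1 in 1 table and replicate 2 in the other. According to the methods and labels, the authors quantified reads with Salmon 1.10.2 on a GRCh38 index, correcting for GC and sequence bias. The deposited values are estimated counts summed per gene and are not normalized. Which transcripts the index held is not given in the sources used here. The control is labelled 48 h. The number of columns that could not be matched to a sample was 0.

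CPM is the estimated count over the library total. Rounded counts entered the quasi-likelihood test of edgeR 4.0.16 (R 4.3.3) with TMM scaling. The filterByExpr rule kept 17895 of 37951 genes, and a separate mean was fitted to each condition (17 residual degrees of freedom). Adjusted p-values are by Benjamini-Hochberg over the genes kept, and 0.05 was the threshold. SE is the log2 fold change over the root of the test's F value. The interaction of day 1 and day 2, also chosen after seeing the data, was tested over the 12 conditions of 48 h. Other settings tried were RLE scaling, unfiltered genes, a term for the replicate, a fit limited to the libraries of a comparison, DESeq2 1.42.0, each library left out and, chosen after seeing the data, near-identical copies summed, or AC244669.1 alone added to LINC01145. Leaving out a library kept the dispersion trend of the full fit, and a condition left with 1 library was assumed to vary like the others.

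Transcripts came from GENCODE v44, were matched by gene ID, and were compared with BLAST 2.17.0. Start windows (250 bases before and 50 after the start) came from RefSeq, with 4 of 6 members matched. The sequence of 1 stretch is not reported here. Members and lists were chosen with earlier results of these data known. Named genes were to be up to 6 members by specificity to each stage (log2 with a pseudocount of 0.5), the 6 highest, and their neighbours, which named all 6 members. Copies and related coding genes were chosen after their values were seen.

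The test was tried on simulated data in which 200 of 17895 genes differed between DE(a)-24h and the control. It found 123 of them with the correct sign, 83.2% of genes set 2 log2 units apart and 41.9% of those set 1 apart, and made 2 false calls.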

Additional observations from a re-analysis of the deposited data

Results flagged for a closer look

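The effect of the day 1 treatment on LINC01145 differed between day 2 media (interaction over the 12 conditions of 48 h, a test chosen after seeing the data, edgeR adjusted p = 0.0342, where 13.1% of all genes were called). PPS cells were above DE(a) cells in both libraries of each in PM (18.5 and 21.9 against 5.53 and 10.5 CPM) and in LM (13.6 and 12.5 against 3.86 and 2.91 CPM). In DE(b) they overlapped (5.63 and 5.95 against 5.08 and 6.17 CPM). The call held in 20 of 31 alternatives, with adjusted p from 0.00207 to 0.102. It was 0.00439 with near-identical copies summed and 0.00207 with AC244669.1 alone added, and the interaction of PARP8 itself had an adjusted p of 0.0856. It was lost without replicate 1 of PPS-DE(b), APS-LM or PPS-LM, or without replicate 2 of DE(a)-DE(b), APS-DE(b), MPS-DE(b), PPS-DE(b), DE(a)-LM, APS-LM or PPS-LM (0.0552 to 0.102), and in a fit of the 12 conditions only (0.0640). With AC244669.1 added, PPS-DE(b) (11.7 and 12.5 CPM) lay below DE(a)-DE(b) (17.6 and 14.5). The other 5 members were not called.

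Of the 6 LINC rows that reached 1 CPM but not 5 CPM, all but LINC00672 and LINC01881 lay above both control libraries in their leading condition. LINC01881 led in the control itself. The leading condition was picked as the highest of 17, which favours a level above the control. LINC01529 (TEX14BP in GENCODE v44) had a mean of 4.06 CPM in APS-LM, from 4.96 and 3.16, against 1.97 and 1.29 in the control. LINC00680 had a mean of 3.79 CPM in PPS-LM, from 4.95 and 2.62, against 2.31 and 1.75. LINC00514 (GREP1, now classed as protein-coding) had 1.54 CPM in PPS-24h, from 1.38 and 1.70, against 0.813 and 0.904. LINC00674 had 1.04 CPM in MPS-DE(b), from 0.663 and 1.42, against 0.271 and 0.160. These differences were not tested.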

How the results depend on the processing

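All 6 members stayed members under TMM scaling, with 5 CPM asked of both replicates and with either replicate alone, 4 remained at 10 CPM, and 8 rows passed at 2 CPM. All 6 led in the same stage with replicate 2 alone, but only 3 did with replicate 1 alone. Of 37 called differences, 1 changed direction. This was LINC01145 in DE(b) against PM, -1.17 alone and 0.071 on the log2 scale with its copy AC244669.1 added, a setting chosen after seeing the data. None lost its call under RLE, DESeq2 or the replicate term. By contrast, 2 were lost with no filter, 8 with only the libraries compared, 5 with near-identical copies summed and 17 without some library. Of the 8 for LINC01145, 2 others lost their call with AC244669.1 added. The cause was not tested.

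Counts of members called moved by over 1.5 times, or to or from 0, as follows. DE(a)-24h against Control gave 2 in place of 1 under RLE, the replicate block, copies summed and DESeq2. APS-24h against Control gave 1 in place of 2 with no filter and with only the libraries compared. MPS-24h against APS-24h gave 1 in place of 0 under DESeq2, and PPS-24h against MPS-24h 0 in place of 1 with only the libraries compared. With copies summed, APS-PM against APS-24h gave 2 in place of 1, MPS-LM against MPS-24h 4 in place of 2, and the day 1 treatments in PM 0 in place of 1. With only the libraries compared, the day 1 treatments gave 0 in PM and 1 in LM, in place of 1 and 2.

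With 1 library left out, the counts ranged from 0 to 1 (DE(a)-24h against Control), 0 to 1 (APS-24h), 1 to 2 (MPS-24h) and 3 to 5 (PPS-24h), and from 0 to 1 for PPS-24h against MPS-24h. They ranged from 1 to 2 in each standard protocol, from 0 to 1 among day 1 treatments in DE(b) and in PM, and from 1 to 3 in LM. Signs were followed for 13 member values not called at first but called in an alternative other than a left-out library. Of these, 4 changed sign, and other uncalled differences were not counted. LINC01347 in APS-24h against Control ran from -0.28 to 0.75 on the log2 scale, and LINC01145 in DE(a)-DE(b) against DE(a)-24h from -0.27 to 0.038, and was 0.058 with AC244669.1 added. LINC01145 in LM against DE(b), 0.08 alone, was -0.22 with copies summed and -0.96 with AC244669.1 added. LINC01347 in APS-PM against APS-24h ran from -0.84 to 0.72, and was -0.94 with copies summed.

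Same-numbered replicates of different conditions tended to deviate together. The correlation of their deviations over 14647 genes was above 0.1, the threshold set for pairing, in 96 of 136 pairs of conditions. It had a median of 0.16, a lowest value of -0.20 and a highest of 0.57. The main model nevertheless held no term for the replicate. A shift shared by same-numbered replicates was therefore left in it. The replicate block added calls of LINC02210 in DE(a)-24h against Control and in DE(a)-DE(b) against DE(a)-24h (3 in place of 2), and changed no other count. At this depth the lowest LINC02495 library held 4 counts.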
